A study of Homo sapiens with 16 samples.

Results

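Lysosome and autophagy genes were followed in A375 melanoma xenografts treated with a BET inhibitor, a BRAF inhibitor or both. The set holds 38 of the 23260 gene symbols in the deposited table. They were chosen by name, with earlier results of these data known. They are the factors TFEB and TFE3, 6 lysosomal membrane proteins, 15 hydrolases, 2 lumenal carriers or activators, 3 proton pump genes and 10 autophagy genes. A375 is a human melanoma line with mutant BRAF. It was injected into both flanks of immunodeficient NOG mice, and 2 mice per group were taken on day 5 of treatment, which gave 16 tumors, 4 per group, each sequenced on its own after rRNA depletion. The control tumors (2L and 2R from mouse 2, 5L and 5R from mouse 5) received the vehicle of DMSO and cyclodextrin. The J tumors (26L, 26R, 29L and 29R) received JQ1, the BET inhibitor, at 50 mg/kg once daily. The V tumors (16L, 16R, 19L and 19R) received Vemurafenib, an inhibitor of mutant BRAF, at 25 mg/kg per dose with 2 doses a day, and the J+V tumors (33L, 33R, 34L and 34R) received both drugs. All 4 groups share the cell line and the host. Each treatment was given to its own 2 mice, so differences between treatments and between animals cannot be fully told apart. The tumors are labelled by mouse and flank, L for left and R for right, and values below are listed in the order just given.

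The lysosome is the acidic compartment in which the cell degrades proteins, lipids and sugars. A rotary proton pump, the V-ATPase, acidifies it, heavily glycosylated membrane proteins such as LAMP1 and LAMP2 line it, and soluble hydrolases work inside it. Autophagy delivers cytoplasm to it: the ULK1 kinase starts the process, ATG9A and ATG2A supply lipid to the growing membrane, and small ubiquitin-like proteins of the LC3 and GABARAP families are attached to that membrane, where receptors such as SQSTM1 bind them. TFEB, TFE3 and MITF, the melanocyte lineage factor, are related proteins that bind E-box sequences near the start sites of many of these genes. TFEB and TFE3 are held in the cytoplasm by mTORC1.

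The E-box of these factors has the core CACGTG, and the longer form TCACGTG is the one typical of lysosomal genes. Promoters of 300 bases (250 before to 50 after the annotated start, RefSeq, GRCh38.p14) were found for 30 of the 38 members, and none for LAMP2, CTSB, HEXA, PSAP, ASAH1, SGSH, ATP6V1H and UVRAG. Both motifs were searched on both strands, and the longer form contains the shorter. The core CACGTG stood in 9 of the 30 promoters (30.0%), against 7.44% of all 27305 promoters, and the longer TCACGTG in 8 (26.7%), against 3.82%. The promoters of CTSA and CTSF are shown because these are the members with TCACGTG that were higher in J+V than in control tumors. TCACGTG or its complement is in capitals, and a CACGTG without the seventh letter is left in lower case. The CTSA promoter lies at chr20:45891085-45891384 on the plus strand, and the cores of its motifs begin 42 and 25 bases before the start site. The CTSF promoter lies at chr11:66568557-66568856 on the minus strand, and the cores begin 123 and 51 bases before the start.
CTSA: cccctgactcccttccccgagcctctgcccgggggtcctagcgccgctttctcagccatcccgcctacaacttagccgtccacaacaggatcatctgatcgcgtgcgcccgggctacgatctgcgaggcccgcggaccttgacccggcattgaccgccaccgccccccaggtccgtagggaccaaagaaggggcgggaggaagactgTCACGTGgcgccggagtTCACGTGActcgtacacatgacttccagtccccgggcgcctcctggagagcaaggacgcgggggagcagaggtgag
CTSF: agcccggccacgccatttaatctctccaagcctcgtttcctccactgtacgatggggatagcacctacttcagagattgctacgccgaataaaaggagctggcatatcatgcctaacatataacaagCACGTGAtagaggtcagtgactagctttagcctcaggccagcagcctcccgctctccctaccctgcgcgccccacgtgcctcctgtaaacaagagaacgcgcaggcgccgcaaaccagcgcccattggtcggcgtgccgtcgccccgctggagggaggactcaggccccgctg

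The other promoters with the 6-letter core belong to members that did not pass the test in J+V against control, and 1 window of each is shown with the motif in capitals for comparison. All but CD63 hold the 7-letter form. The first base of the motif core lies 28 bases before the start in LAMP1, 41 in MCOLN1, 76 in GAA, 126 in NEU1, 47 in CTSD, 59 in ATP6V0D1 and 180 in CD63, and LAMP1 holds 6 such motifs in its promoter. The promoters these windows come from lie, by strand, at chr13:113296989-113297288 (plus) for LAMP1, chr19:7522374-7522673 (plus) for MCOLN1, chr17:80101331-80101630 (plus) for GAA, chr6:31862772-31863071 (minus) for NEU1, chr11:1763878-1764177 (minus) for CTSD, chr16:67481108-67481407 (minus) for ATP6V0D1 and chr12:55728960-55729259 (minus) for CD63.
LAMP1: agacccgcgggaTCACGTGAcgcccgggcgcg
MCOLN1: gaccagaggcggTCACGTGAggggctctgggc
GAA: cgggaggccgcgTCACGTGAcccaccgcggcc
NEU1: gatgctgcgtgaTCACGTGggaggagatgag
CTSD: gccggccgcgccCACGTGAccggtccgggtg
ATP6V0D1: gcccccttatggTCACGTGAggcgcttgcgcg
CD63: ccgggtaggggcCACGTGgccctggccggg
Among members with a promoter, TCACGTG stood in 2 of the 8 that were higher in J+V than in control tumors, in 6 of the 19 that did not pass and in 0 of 1 that was lower. In 127 promoters of other lysosome, autophagy and mTORC1 genes it stood in 22 (17.3%). A match is a description of these letters and not evidence of binding.

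Expression is given as FPKM (fragments per kilobase of transcript, scaled to the sequenced fragments), which is scaled by transcript length, so levels of different genes can be set side by side. Summed over a tumor the deposited FPKM came to 970443 to 1406986, and 47.5 to 64.5% of that sum lay in small RNA genes. One control tumor stood apart. Tumor 5R was the highest of the 4 control tumors for 31 of the 38 members (81.6%), against 47.5% of the 13426 genes that passed the filter. Its members lay at a median of 0.47 above the mean of the other control tumors on the log2 scale, against 0.13 for all genes. Its summed FPKM over the 38 members was 1659, against 1134 to 1139 in the other 3 control tumors. Counts of called genes in J+V against control are therefore also given without it. Tumor 5R was singled out by these same members, and leaving it out lowers the control means of those it is highest for. More higher calls without 5R are therefore built into that choice and are no separate support.

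Testing was limited to genes that reached an FPKM of 1 in 4 or more tumors, and 36 of the 38 members passed this filter. TFEB and ULK1 did not. A gene is called when its adjusted p is below 0.05. That p comes from limma on log2(FPKM + 0.5), with the mouse as a block and Benjamini-Hochberg adjustment over all genes tested. Fold changes are log2 differences on that scale, which understates the change of weakly expressed genes. The correlation within a mouse was fitted at -0.07, so the block did not widen the errors for the 2 tumors of each mouse. In J+V against control 16.6% of all genes were higher with the block and 15.1% with no block. With the mean of each mouse's tumors the share was 12.5%.

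Part of the lysosome set and 3 genes of the LC3 and GABARAP families were higher in J+V than in control tumors. The pump genes of the set and its other tested autophagy genes did not pass the test. In J+V against control tumors 11 members were higher (30.6%; 16.6% of all genes tested were higher) and 1 was lower (2.78%; 20.5% of all genes). The higher members were CTSF, ASAH1, TPP1, HEXA and CTSA among the hydrolases, NPC2 among the carriers, LAMP2 and SCARB2 among the membrane proteins, and GABARAP, GABARAPL1 and MAP1LC3B among the autophagy genes. The lower member was GLA. The median log2 fold change over the 36 members was 0.13, with 22 positive and 14 negative, against a median of -0.03 over all genes. Without control tumor 5R, 17 of the 36 members were higher (18.8% of all genes) and 1 was lower (20.3% of all genes). By contrast, 5 of the 36 were higher without 5L (11.3% of all genes) and 6 without mouse 2 (13.6% of all genes). Without mouse 33, 2 of the 36 were higher, a smaller share than the 8.92% of all genes. The excess of higher members over all genes was thus not seen without this 1 of the 2 J+V mice. Without 2L 4 were lower (21.9% of all genes). When every tumor was scaled to the same FPKM sum (TPM), 3 were higher and 7 lower (6.08% and 35.2% of all genes), and the medians moved to -0.05 for members and -0.22 for all genes. The 3 other scalings used a common FPKM sum without small RNAs, the upper quartile or quantiles. They left the median of all genes between 0.00 and 0.02. Small RNA genes held 47.5 to 57.9% of the FPKM sum in control tumors and 57.8 to 64.5% in J+V. The part of this share in the results with a common FPKM sum was not tested. In bulk tumor RNA, fewer cells of a type and less RNA per cell cannot be told apart.

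**Figure D1:**
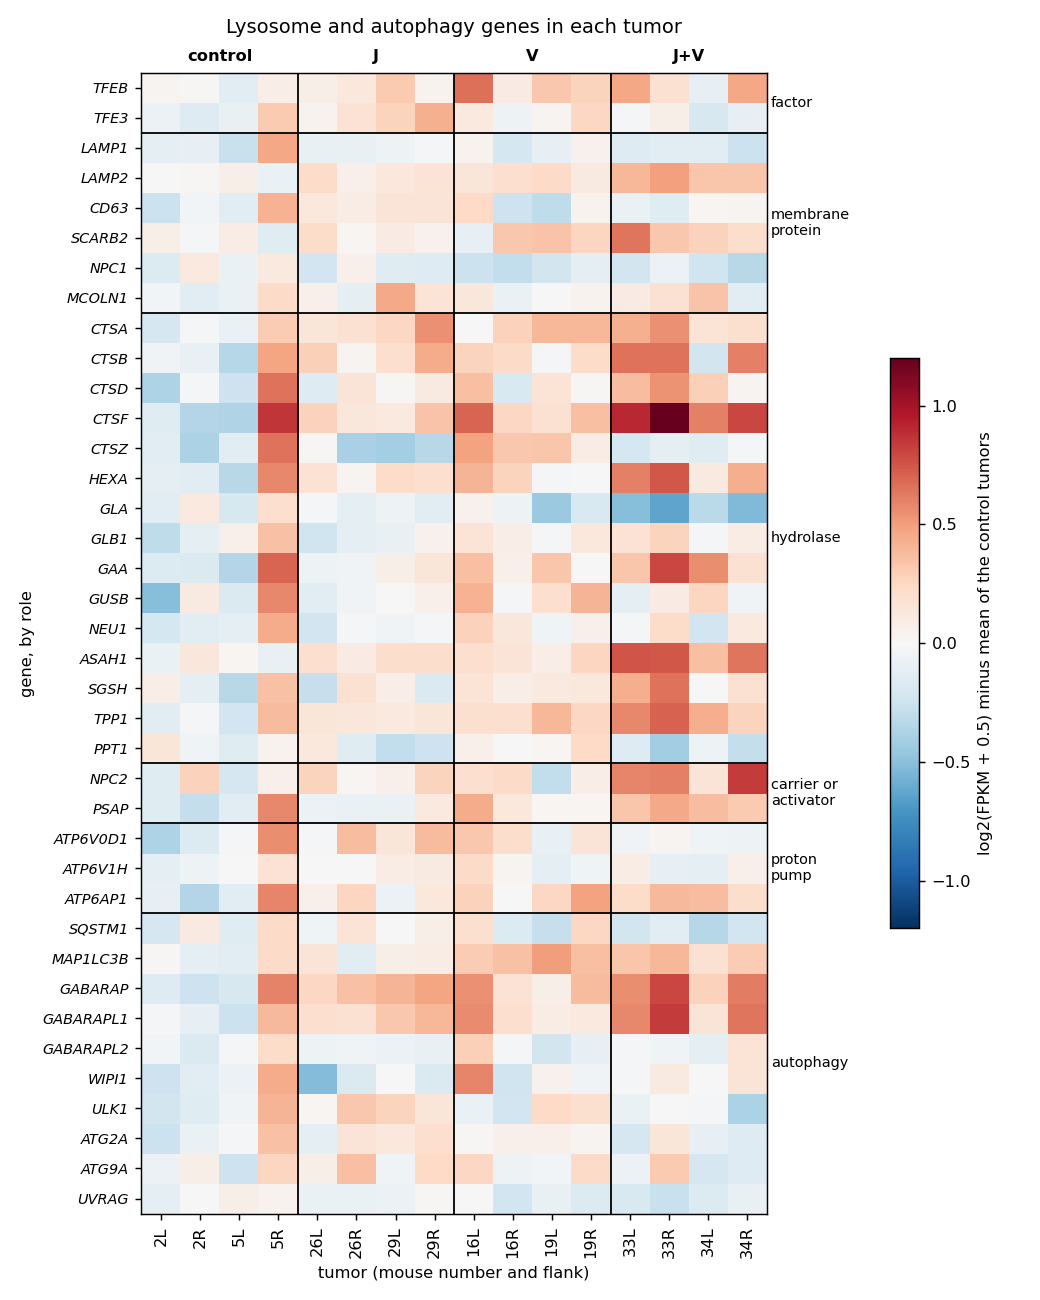
Each cell shows the log2(FPKM + 0.5) of a member (rows, ordered by role) in a tumor (columns, by group) minus its mean over the 4 control tumors. Control tumor 5R is the highest control tumor for 31 of 38 members. The J+V columns are red for CTSF, ASAH1, TPP1, LAMP2 and NPC2 and blue for GLA.

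The hydrolases held the largest changes. They cleave proteins, sugars and lipids in the acid lumen. Of the 15, 5 were higher and 1 lower in J+V against control (33.3% and 6.67%, beside 16.6% and 20.5% of all genes). Their median log2 fold change was 0.32. Without 5R 9 were higher and 1 lower, beside 18.8% and 20.3% of all genes. Without mouse 33 1 was higher and 1 lower, beside 8.92% and 12.2% of all genes.

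CTSF encodes cathepsin F, a cysteine protease, and lies at chr11:66330935-66336350 on the minus strand of GRCh37, the build the authors mapped to. Its FPKM was 12.4, 10.6, 10.6 and 25.3 in control tumors, 16.7, 15.1, 15.0 and 17.6 in J, 22.6, 16.4, 15.7 and 17.8 in V, and 26.2, 32.8, 21.1 and 24.2 in J+V. The J+V tumors lay above all J tumors and above 3 of the 4 control tumors, whereas 5R lay within their range. J+V exceeded control by a log2 fold change of 0.88 ± 0.21 (SE, adjusted p = 0.00511), or 1.17 without 5R. Without mouse 33 CTSF was no longer called.

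ASAH1 encodes acid ceramidase, which splits ceramide into sphingosine and a fatty acid. Its FPKM was 13.6, 15.8, 14.6 and 13.5 in control tumors, 16.5, 15.4, 16.6 and 16.6 in J, 16.5, 16.0, 15.1 and 17.2 in V, and 24.5, 24.4, 18.5 and 22.6 in J+V. Every J+V tumor was higher than every tumor of the other groups, and 5R was the lowest control tumor for this gene. Against control, J+V was higher by a log2 fold change of 0.63 ± 0.08 (SE, adjusted p = 0.000109), and ASAH1 was called under all 35 alternative settings.

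TPP1 encodes tripeptidyl peptidase, a protease whose loss causes a neuronal storage disease. Its FPKM was 5.48, 5.96, 5.10 and 8.04 in control tumors, 6.76, 6.70, 6.61 and 6.73 in J, 7.003, 7.02, 8.15 and 7.28 in V, and 9.26, 10.2, 8.36 and 7.38 in J+V. The J+V range overlapped the controls only through 5R, which lay above tumor 34R. This gave a log2 fold change of 0.50 ± 0.12 (SE, adjusted p = 0.00427), and the call was lost without mouse 33.

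HEXA encodes the alpha subunit of beta-hexosaminidase, which degrades gangliosides. Its FPKM was 15.1, 14.7, 12.8 and 24.4 in control tumors, 18.3, 16.6, 19.0 and 18.7 in J, 21.7, 19.7, 16.0 and 16.3 in V, and 24.95, 27.6, 17.5 and 22.1 in J+V. Tumors 34L and 34R lay below 5R, and 34L also within the J range. In J+V against control it rose by a log2 fold change of 0.48 ± 0.17 (SE, adjusted p = 0.0380), and the call was lost under 15 of the 35 alternatives.

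GLA encodes alpha-galactosidase A, which removes terminal galactose from glycolipids, and lies at chrX:100648261-100663000 on the minus strand of GRCh37. It was the member that fell. Its FPKM was 6.89, 8.27, 6.60 and 8.83 in control tumors, 7.53, 7.03, 7.23 and 6.92 in J, 7.88, 7.28, 5.44 and 6.63 in V, and 5.16, 4.73, 5.96 and 5.09 in J+V. The J+V tumors lay below all control and J tumors and overlapped V only through 19L. GLA changed by -0.50 ± 0.11 on the log2 scale (SE, adjusted p = 0.00286), and the call held under all 35 alternatives.

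CTSA, the protective protein that holds the sialidase NEU1 and beta-galactosidase in a complex, rose from 22.2 ± 3.51 to 28.0 ± 3.66 FPKM (mean ± SD, n = 4), with a log2 fold change of 0.33 ± 0.13 (SE, adjusted p = 0.0494). That value sits just inside the threshold, and the call was lost under 20 of the 35 alternatives. NEU1 and GLB1 (beta-galactosidase), its partners, had log2 fold changes of 0.02 and 0.13 and did not pass.

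The remaining hydrolases did not pass either. The proteases CTSB (0.42, adjusted p = 0.0811), CTSD (0.31, adjusted p = 0.193) and CTSZ (-0.12, adjusted p = 0.591) had these log2 fold changes in J+V against control. CTSB was called at 0.58 without 5R, at 0.64 without 34L and at 0.65 without mouse 34, and CTSD at 0.52 without 5R, while CTSZ was at 0.10 without 5R and was not called. By its mean over the 16 tumors CTSZ was the most abundant member, at 186 ± 64.8 FPKM in control tumors and 164 ± 9.57 in J+V (mean ± SD, n = 4). GAA, which degrades glycogen, had 0.47 (adjusted p = 0.0600) and was called under 6 of the alternatives, including the one without 5R, where its log2 fold change was 0.70. SGSH, a sulfatase of heparan sulfate, had 0.32 (adjusted p = 0.126) at a mean of 1.45 FPKM in J+V. PPT1, which removes palmitate from proteins, had -0.23 (adjusted p = 0.0819). GUSB (beta-glucuronidase), which the study used as a reference gene for PCR, had 0.05 (adjusted p = 0.845).

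**Figure D2:**
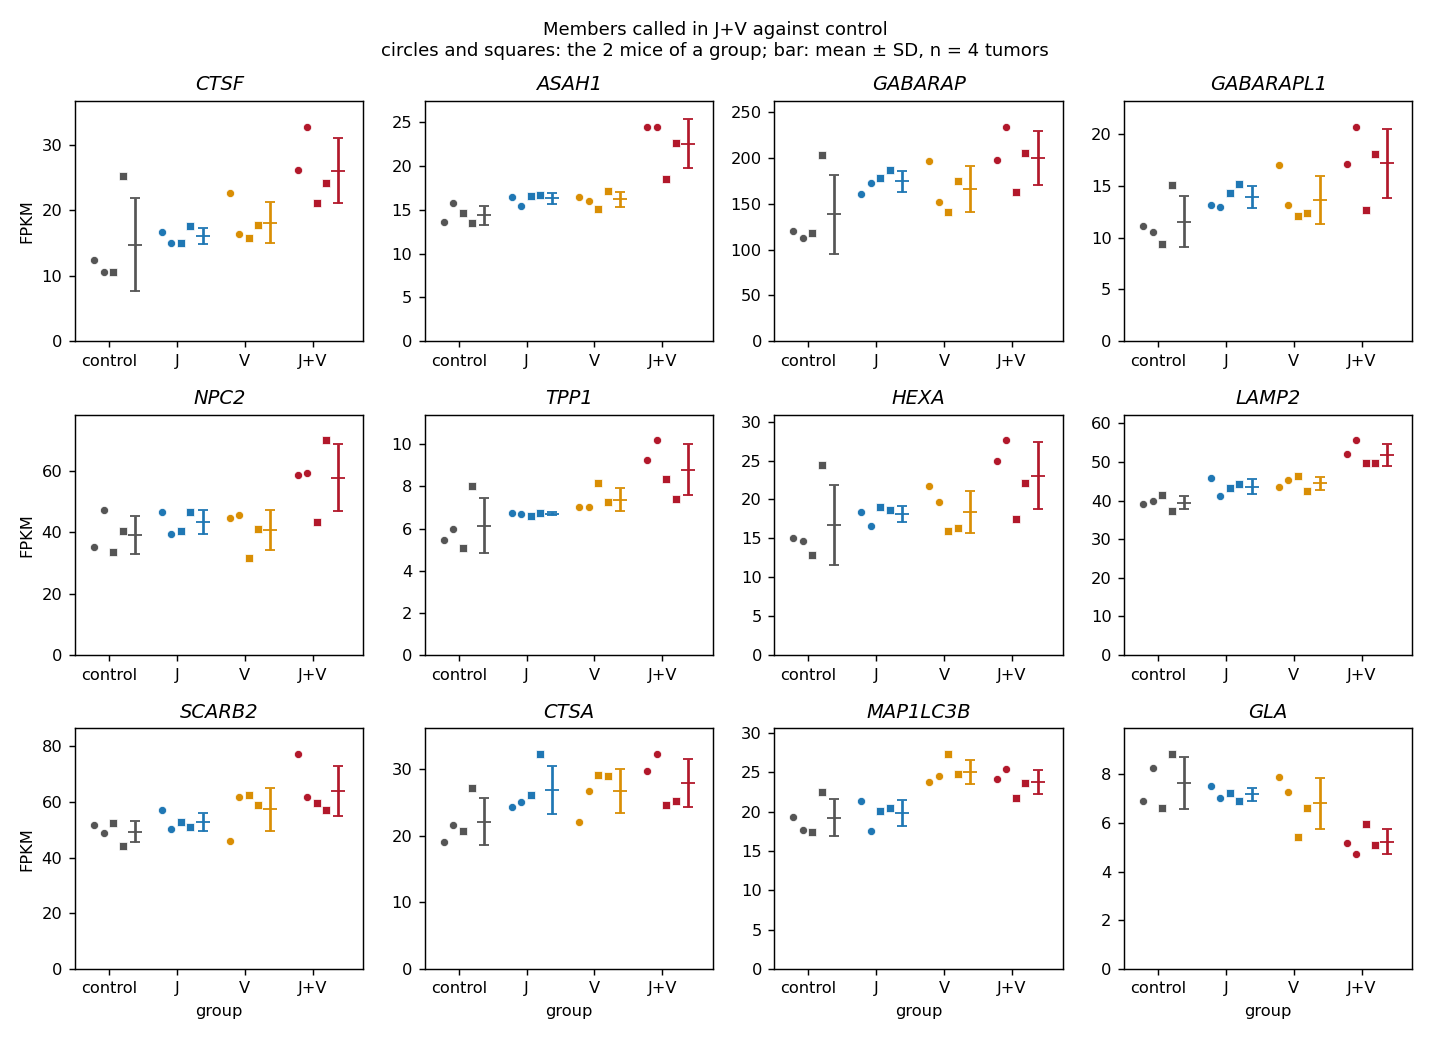
FPKM of the 12 members called in J+V against control, by group, with 1 point per tumor, a circle or a square telling the pair of mice apart, and mean ± SD (n = 4 tumors) at the right of each group. The axes start at 0. ASAH1 and LAMP2 are the panels in which the J+V tumors lie above every other tumor, and in CTSF, TPP1, HEXA, CTSA, GABARAP, GABARAPL1 and MAP1LC3B control tumor 5R lies within the J+V range.

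NPC2 and PSAP act in the lumen without being hydrolases. NPC2 binds cholesterol and hands it to the membrane protein NPC1. Its FPKM was 35.1, 47.3, 33.7 and 40.5 in control tumors, 46.8, 39.4, 40.5 and 46.8 in J, 44.7, 45.7, 31.6 and 41.0 in V, and 58.7, 59.4, 43.4 and 70.0 in J+V. The J+V tumors other than 34L lay above every tumor of the other groups. NPC2 rose by a log2 fold change of 0.55 ± 0.14 (SE, adjusted p = 0.00791), and the call was lost without 5L, mouse 5 or mouse 33 and with a common FPKM sum. NPC1, its partner, had a log2 fold change of -0.22 (adjusted p = 0.0602), from 8.95 ± 0.925 to 7.63 ± 0.6 FPKM (mean ± SD, n = 4). NPC1 was called lower with a common FPKM sum and without 2L or 33R. PSAP, the precursor of the saposins that help hydrolases reach lipids, went from 121 ± 36.4 FPKM to 152 ± 6.95 with a log2 fold change of 0.37 (adjusted p = 0.0591), and without 5R it was called at 0.56.

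Among the membrane proteins 2 of 6 were higher and 0 lower, with the same counts without 5R. Over all genes the shares were 16.6% higher and 20.5% lower, or 18.8% and 20.3% without 5R. LAMP2, which lines the lysosome and serves in its fusion with autophagosomes, lies at chrX:119560003-119603220 on the minus strand of GRCh37. It had FPKM of 39.2, 39.8, 41.5 and 37.3 in control tumors, 45.9, 41.1, 43.2 and 44.3 in J, 43.6, 45.3, 46.3 and 42.5 in V, and 52.0, 55.6, 49.6 and 49.8 in J+V. Every J+V tumor was above every tumor of the other groups, and 5R was the lowest control tumor. LAMP2 rose by a log2 fold change of 0.39 ± 0.06 (SE, adjusted p = 0.000235). Of the 35 alternatives only the common FPKM sum ended this call, at 0.17 (adjusted p = 0.233).

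SCARB2 (LIMP-2) carries the enzyme glucocerebrosidase to the lysosome. Its FPKM was 51.8, 48.7, 52.5 and 44.3 in control tumors, 57.2, 50.1, 52.7 and 51.1 in J, 45.8, 61.9, 62.7 and 59.01 in V, and 77.2, 61.7, 59.7 and 56.9 in J+V. All J+V tumors lay above all control tumors, and 3 of the 4 V tumors did as well. The log2 fold change of J+V against control was 0.36 ± 0.11 (SE, adjusted p = 0.0144), and the call was lost without mouse 5 or mouse 33 and with a common FPKM sum.

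The close relative LAMP1 did not follow LAMP2: its FPKM was 32.5 ± 7.94 in control and 28.3 ± 1.13 in J+V tumors (mean ± SD, n = 4), with a log2 fold change of -0.17 (adjusted p = 0.258). With a common FPKM sum LAMP1 was called lower (adjusted p = 0.00686). The tetraspanin CD63 had a mean of 148 FPKM in J+V tumors and a log2 fold change of -0.04 (adjusted p = 0.817). MCOLN1, the calcium channel through which lysosomes signal to TFEB, was expressed at a mean of 1.21 FPKM with a log2 fold change of 0.12 (adjusted p = 0.478).

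None of the 3 proton pump genes passed the test. ATP6V0D1 and ATP6V1H, a membrane-domain and a cytoplasmic-domain subunit, had log2 fold changes of -0.03 (95% interval -0.36 to 0.30) and -0.02 (-0.19 to 0.16). ATP6AP1, an accessory protein of the pump, had 0.30 (-0.03 to 0.62, adjusted p = 0.144), and without 5R it was called at 0.49 (adjusted p = 0.00342).

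In the autophagy group 3 of the 9 tested members were higher and 0 lower, with or without 5R. Over all genes 16.6% were higher and 20.5% lower, or 18.8% and 20.3% without 5R. All 3 higher members encode proteins that are attached to the autophagosome membrane. None of the 3 stayed called without 5L, mouse 2 or mouse 33, or with a common FPKM sum. GABARAP had FPKM of 120, 113, 118 and 203 in control tumors, 160, 172, 178 and 187 in J, 197, 152, 141 and 175 in V, and 198, 234, 163 and 206 in J+V. All 12 treated tumors lay above the 3 control tumors other than 5R. The log2 fold change of J+V against control was 0.56 ± 0.16 (SE, adjusted p = 0.0139).

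GABARAPL1, its paralog, had FPKM of 11.2, 10.6, 9.42 and 15.1 in control tumors, 13.1, 13.0, 14.4 and 15.2 in J, 17.1, 13.1, 12.1 and 12.4 in V, and 17.2, 20.8, 12.7 and 18.1 in J+V. Here too all treated tumors lay above the control tumors other than 5R, and 34L was the lowest in J+V. The log2 fold change was 0.55 ± 0.15 (SE, adjusted p = 0.0103).

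MAP1LC3B, the LC3 protein used as the common marker of autophagosomes, had FPKM of 19.3, 17.7, 17.5 and 22.5 in control tumors, 21.4, 17.5, 20.2 and 20.4 in J, 23.8, 24.5, 27.3 and 24.8 in V, and 24.2, 25.5, 21.8 and 23.7 in J+V. V, not J+V, was the highest group. The log2 fold change of J+V against control was 0.30 ± 0.08 (SE, adjusted p = 0.0117), and that of V was 0.38 ± 0.08 (adjusted p = 0.141).

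GABARAPL2, the most abundant family member after GABARAP, did not move with them. Its FPKM was 105, 95.3, 107 and 125 in control tumors, 103, 105, 102 and 101 in J, 132, 106, 92.0 and 100 in V, and 106, 104, 99.7 and 121 in J+V. The ranges of all 4 groups overlapped, and the log2 fold change was -0.01 (95% interval -0.22 to 0.21). The 4 genes share sequence, and the authors' rule for reads shared by paralogs is not known here.

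The autophagy receptor SQSTM1 (p62), which is itself degraded by autophagy as a protein, went from 52.5 ± 7.59 FPKM in control tumors to 44.3 ± 2.74 in J+V (mean ± SD, n = 4; log2 fold change -0.23, adjusted p = 0.123). SQSTM1 was called lower with a common FPKM sum and without 2L. ATG2A and ATG9A had log2 fold changes of -0.08 and -0.03, and WIPI1, which binds the phospholipid of the forming membrane, had 0.06. UVRAG, a subunit of the lipid kinase complex that makes it, had -0.18 (adjusted p = 0.0552) and was called lower under 6 of the 35 alternatives. ULK1 stayed under the filter, with FPKM between 0.475 and 1.19 over the 16 tumors and at least 1 in 3 of them. In a fit without the filter its log2 fold change was -0.12 (adjusted p = 0.594).

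**Figure D3:**
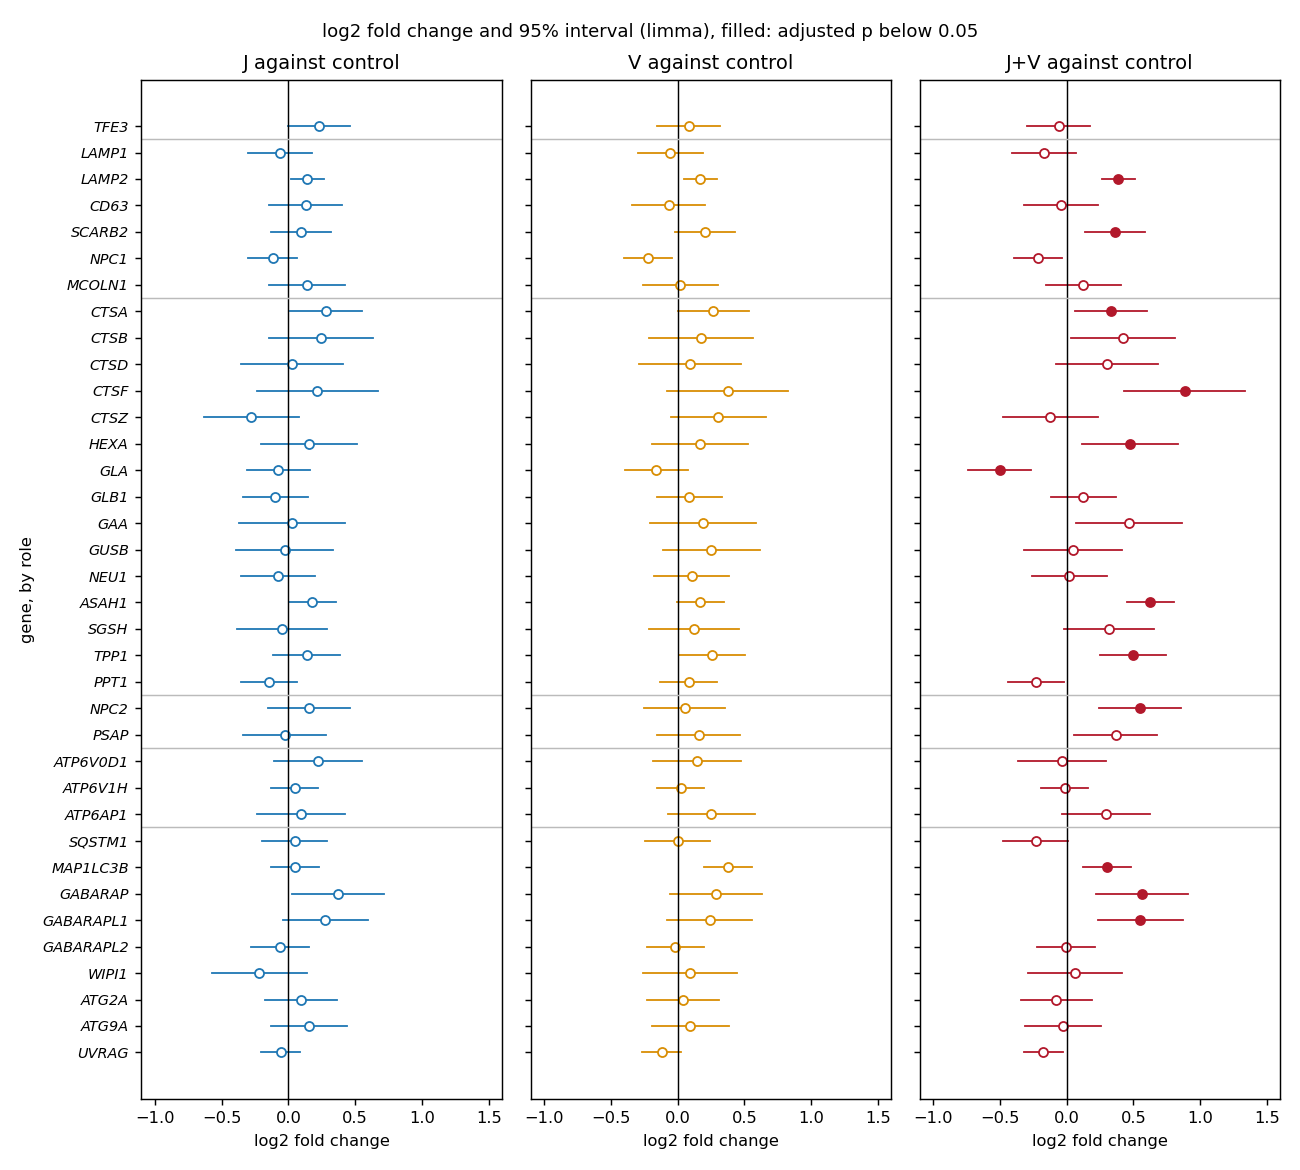
Log2 fold changes with 95% intervals from limma for the 36 tested members, by role, in J, V and J+V against the same 4 control tumors; filled points have an adjusted p below 0.05. Filled points occur in the J+V panel only, 11 to the right of 0 and GLA, at -0.50, to the left.

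Of the factors of the set, TFE3 did not pass the test in J+V against control, and TFEB stayed under the filter and was not tested. TFEB was listed at 0.262, 0.253, 0.182 and 0.288 FPKM in control tumors, 0.282, 0.312, 0.428 and 0.270 in J, 0.679, 0.299, 0.432 and 0.396 in V, and 0.529, 0.344, 0.198 and 0.526 in J+V. No tumor reached an FPKM of 1. In a fit without the filter the log2 fold change was 0.34 ± 0.13 in V (adjusted p = 0.281) and 0.25 ± 0.13 in J+V (adjusted p = 0.163).

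TFE3 was far more abundant than TFEB. Its FPKM was 5.83, 5.49, 5.75 and 7.76 in control tumors, 6.37, 7.03, 7.48 and 8.46 in J, 6.72, 5.87, 6.33 and 7.40 in V, and 6.09, 6.47, 5.32 and 5.73 in J+V. The groups overlapped, and the log2 fold change of J+V against control was -0.06 (95% interval -0.29 to 0.18). With a common FPKM sum TFE3 was called lower (adjusted p = 0.0483). MITF, which is outside the set, had 8.27 ± 0.929 FPKM in control and 9.85 ± 1.99 in J+V tumors (mean ± SD, n = 4; log2 fold change 0.23, adjusted p = 0.218). These are transcript levels, and the location or activity of the proteins was not measured.

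The single drugs were set against the same control tumors as the combination, so these 3 comparisons are not independent. In J against control limma called 0 members, as it did over all genes (0.0% higher and 0.0% lower). At an unadjusted p under 0.05, 4 members were higher and none lower: GABARAP (log2 fold change 0.37), CTSA (0.28), ASAH1 (0.18) and LAMP2 (0.14). Without 5R, GABARAP alone was called in J, at 0.57 (adjusted p = 0.0475), beside 0.702% of all genes.

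In V against control limma also called 0 members and no gene of the whole table (0.0% higher and 0.0% lower). At an unadjusted p under 0.05, MAP1LC3B (0.38), CTSA (0.27), TPP1 (0.26) and LAMP2 (0.17) were higher and NPC1 (-0.22) was lower. Of the 36 log2 fold changes in V 30 were positive, with a median of 0.11 against 0.01 for all genes, and of those in J 23 were positive, with a median of 0.07 against 0.04. Without 5R, 6 members were higher in V than in control tumors (1.84% of all genes): CTSF (0.66), CTSZ (0.52), GABARAP (0.49), MAP1LC3B (0.46), ATP6AP1 (0.45) and TPP1 (0.39). Without mouse 5, which bore 5L and 5R, 2 were higher (1.08% of all genes).

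Against each single drug the combination differed at fewer members. In J+V against J, 5 members were higher (13.9%; 8.67% of all genes) and 1 lower (2.78%; 18.4%). They were CTSF (0.67), ASAH1 (0.45), TPP1 (0.36), MAP1LC3B (0.25) and LAMP2 (0.24), with GLA lower at -0.43. In J+V against V, 3 members were higher (8.33%; 4.99% of all genes) and 1 lower (2.78%; 8.31%). These were NPC2 (0.50), ASAH1 (0.45) and LAMP2 (0.22), and PPT1, which was lower at -0.31 with an adjusted p of 0.0499. GLA, at -0.34, missed the threshold there (adjusted p = 0.0525). These counts moved with the tumors left out, as did the share of all genes that were higher. Against J, 1 member was higher without mouse 26, 29 or 33 (2.11 to 2.91% of all genes), 2 or 3 without any single J tumor (5.09 to 7.22%), 2 without 33L, 33R or 5L (4.59 to 6.48%), 9 without 34L (10.2%) and 8 without mouse 34 (7.98%). Against V, 0 were higher without mouse 33 (0.759% of all genes), 1 without mouse 19 or 29 or tumor 19R, 33L, 33R or 5L (1.18 to 3.21%), and 5 without 34L (6.51%). ASAH1 kept its call against J under all 35 alternatives and against V under 32, whereas PPT1 lost its call against V under 25.

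In J against V limma called 0 members (with 0.127% of all genes higher and 0.156% lower). At an unadjusted p under 0.05, 3 members were lower in J than in V, namely CTSZ (-0.58), MAP1LC3B (-0.33) and PPT1 (-0.23). Without 5R, CTSZ was called (adjusted p = 0.0255). Its FPKM was 149 ± 21.6 in J and 222 ± 24.3 in V (mean ± SD, n = 4), and the 4 J tumors lay below the 4 V tumors.

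Whether the drugs added on the log2 scale was tested as the J+V effect minus the J and V effects together. limma called 0 members and 0 of all genes (0.0% above the sum and 0.0% below). At an unadjusted p under 0.05 ASAH1 lay above the sum (0.27 ± 0.12, SE) and TFE3 below it (-0.37 ± 0.16). The 95% interval for ASAH1 was 0.02 to 0.53, and the median over the 36 members was 0.00 against -0.07 over all genes.

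**Figure D4:**
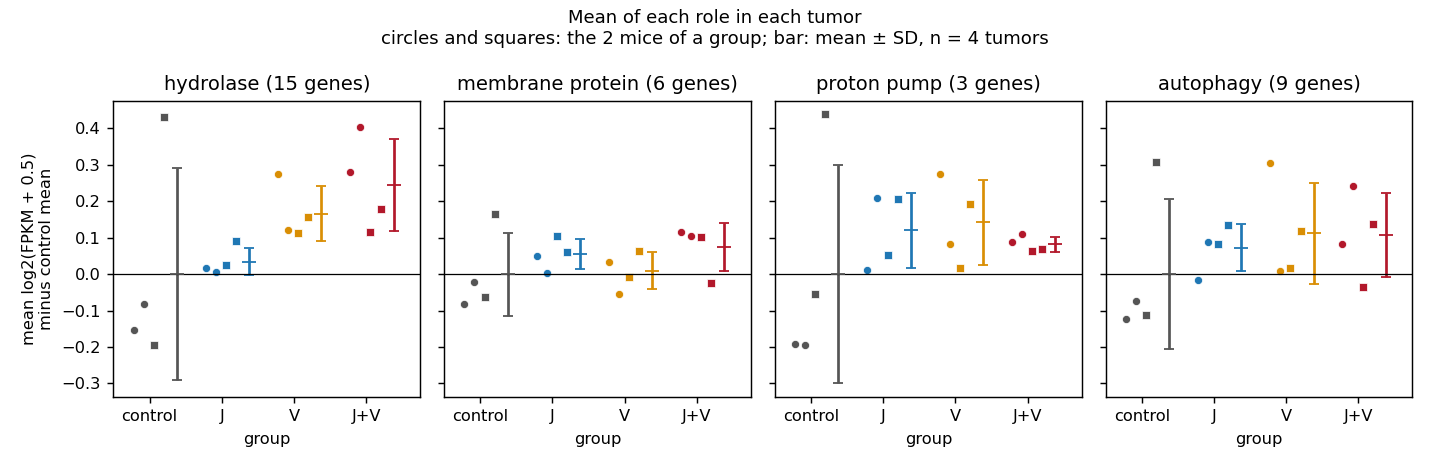
Mean log2(FPKM + 0.5) of the tested members of 4 roles in each tumor, minus the control mean, with 1 point per tumor (circle or square by mouse) and mean ± SD (n = 4). Hydrolases lie at 0.25 ± 0.13 in J+V, with 5R at 0.43 above all J+V tumors.

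Averaged over a role, the 15 hydrolases lay at 0.03 ± 0.04 in J, 0.17 ± 0.08 in V and 0.25 ± 0.13 in J+V relative to the control mean (log2, mean ± SD over 4 tumors). Control tumor 5R lay at 0.43 and the other 3 controls between -0.20 and -0.08. The pair NPC2 and PSAP lay at 0.46 ± 0.14 in J+V, the 3 pump genes at 0.08 ± 0.02, the 6 membrane proteins at 0.08 ± 0.07 and the 9 autophagy genes at 0.11 ± 0.12. Within J+V, the mouse 33 tumors had the higher hydrolase means (0.28 and 0.40) and the mouse 34 tumors the lower (0.12 and 0.18).

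Further genes of the pathway, 165 in 6 lists, show how far the pattern extended. Of the 153 tested, 34 were higher and 19 lower in J+V against control (22.2% and 12.4%, beside 16.6% and 20.5% of all genes), with a median log2 fold change of 0.10. Without 5R the counts were 44 and 16 (28.8% and 10.5%, beside 18.8% and 20.3% of all genes). Without mouse 33 they were 15 and 11 (9.80% and 7.19%, beside 8.92% and 12.2%), so the share that was higher lay near that of all genes. With a common FPKM sum they were 13 and 34 (8.5% and 22.2%, beside 6.08% and 35.2%). In J and in V 0 of them were called, with 15 and 22 at an unadjusted p under 0.05.

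Among the other hydrolases and their cofactors 13 of 39 were higher (33.3%) and 4 lower (10.3%), beside 16.6% and 20.5% of all genes. Their median was 0.29. Without 5R 21 were higher and 4 lower, beside 18.8% and 20.3% of all genes. SIAE, which removes acetyl groups from sialic acid, rose from 9.33 ± 2.55 to 25.4 ± 6.20 FPKM (mean ± SD, n = 4; log2 fold change 1.399, adjusted p = 0.000116). The cathepsin CTSO followed at 1.05 (adjusted p = 0.00147) and the sulfatase ARSG at 0.97 (adjusted p = 0.000556). These 3 stayed called without 5R, without mouse 33 and with a common FPKM sum. Of the 8 genes of enzyme sorting and activation, 3 were higher (37.5%, beside 16.6% of all genes) and 0 lower (20.5% of all genes). The higher genes were SUMF1, which activates sulfatases (0.66), the sorting receptor SORT1 (0.58) and GNPTG, a subunit of the enzyme that begins the mannose 6-phosphate tag (0.36). Without 5R 4 were higher (18.8% of all genes). SUMF1 lost its call without mouse 33 (0.46, adjusted p = 0.0724), and GNPTG lost it there and with a common FPKM sum (0.16, adjusted p = 0.301).

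Membrane proteins, pump and autophagy genes beyond the members were divided. Of 23 other membrane proteins 5 were higher and 2 lower (21.7% and 8.70%, beside 16.6% and 20.5% of all genes). Without 5R 6 were higher and 2 lower (18.8% and 20.3% of all genes). The paralogs LAPTM4A (0.48) and LAPTM4B (-0.49) were called in opposite directions, the former not with a common FPKM sum (0.26, adjusted p = 0.0863). ATP13A2, a polyamine exporter of the lysosome, was lower at -0.53. Of 16 other pump genes 2 were higher and 2 lower, with or without 5R. That is 12.5% each way, beside the same shares of all genes as for the membrane proteins. ATP6AP2 rose from 46.7 ± 3.70 to 68.9 ± 1.85 FPKM (mean ± SD, n = 4; log2 fold change 0.56, adjusted p = 8.53e-05). ATP6V1A rose by 0.22 (-0.001 with a common FPKM sum), and ATP6V1B2 had -0.29. The calls of ATP6V1A and ATP6V1B2 were lost without mouse 33 (adjusted p = 0.0951 and 0.127), and that of ATP6V1B2 also without 5R (-0.22, adjusted p = 0.0508).

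Of 49 other autophagy genes 8 were higher and 9 lower, or 16.3% and 18.4%, near the 16.6% and 20.5% of all genes. Without 5R the counts were 9 and 7 (18.8% and 20.3% of all genes). FAM134B, a receptor for the endoplasmic reticulum, rose by 0.87, and MAP1LC3A by 0.71. ATG4D, a protease that processes LC3 and GABARAP proteins, fell by 0.85 on the log2 scale, from 1.48 ± 0.210 to 0.599 ± 0.0602 FPKM (mean ± SD, n = 4; adjusted p = 9.53e-05), and all J+V tumors lay below all others. Of 18 genes of the MiT factors and their control by mTORC1, 3 were higher and 2 lower (16.7% and 11.1%, beside 16.6% and 20.5% of all genes). Without 5R 2 were higher and 1 lower (18.8% and 20.3% of all genes). RHEB, the GTPase that activates mTORC1, fell by 0.52 on the log2 scale (adjusted p = 0.000617), RRAGB rose by 0.48 and LAMTOR2 fell by 0.42. RRAGB lost its call with a common FPKM sum (0.27, adjusted p = 0.0755), and LAMTOR2 lost it without 5R (-0.27, adjusted p = 0.130) and without mouse 33 (-0.34, adjusted p = 0.187).

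**Figure D5:**
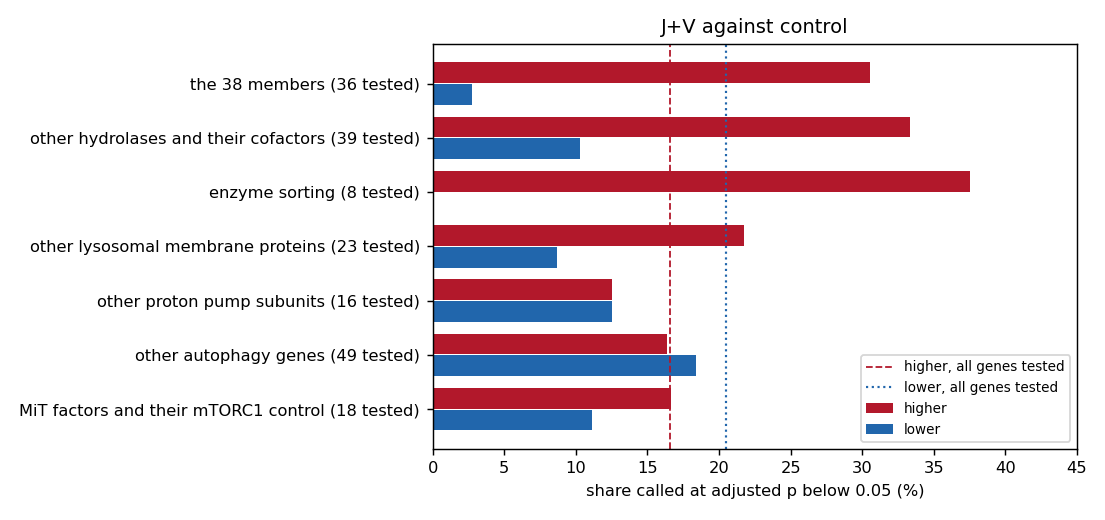
Share of the tested genes of each list that was higher (red) or lower (blue) in J+V against control at an adjusted p below 0.05. The dashed and dotted lines mark the shares over all genes tested, 16.6% higher and 20.5% lower.

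Markers of the line and of other cell types were read beside these results. Of the 11 melanoma cell markers SOX10, S100B, MITF, MIA, MLANA and VIM were above an FPKM of 1 in every tumor, whereas DCT was at 0 in every tumor and PMEL, TYR and TYRP1 never reached 1. These markers moved as well: in J+V against control S100B (1.68, adjusted p = 4.84e-05), MIA (0.58) and MLANA (0.55) were higher and VIM (-0.46, adjusted p = 0.00644) was lower, and without mouse 33 only S100B of these 4 stayed called. Host cells in these tumors are mouse cells, while reads were mapped to the human genome, and no step that handles mouse reads is stated, so values at human symbols are no measure of how many host cells were present. Macrophages are rich in lysosomes. Of 13 macrophage markers, TYROBP, MRC1, C1QA, C1QB and C1QC were at 0 in every tumor, and 10 never reached an FPKM of 1. Their summed level was 2.91 to 6.31 FPKM in control, 3.06 to 5.47 in J, 2.93 to 4.67 in V and 2.38 to 4.21 in J+V, with 5R at 2.91. None of the 7 endothelial markers passed the filter, with sums of 1.63 to 2.94 over the tumors.

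Of 9 fibroblast markers 8 were tested. In J+V against control 3 were higher (37.5%, beside 16.6% of all genes) and 0 lower: DCN (1.67), LUM (1.61) and PDGFRB (0.72). The other 5 did not pass, among them COL1A1 at -0.16. Of the 8 log2 fold changes 6 were positive and 2 negative. Without 5R 5 were higher in J+V against control (18.8% of all genes). In J and in V limma called 0 of these markers, while 3 were higher in each at an unadjusted p under 0.05. Their summed FPKM was 44.3 to 136 in control tumors, with 5R the highest, 69.3 to 89.2 in J, 66.9 to 126 in V and 71.0 to 132 in J+V. Their part in the differences of the lysosome genes, and in those of tumor 5R, was not tested.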

How the data were processed

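RNA of 16 tumors was sequenced after rRNA depletion, and the authors deposited FPKM for 23260 gene symbols. Per the labels the tools before deposit were bcl2fastq, TopHat and Cufflinks with hg19, while the annotation is not stated in the sources at hand. Read depth is unknown, so no counting interval was given. Groups came from the treatment labels. FPKM + 0.5 was log2 transformed, the 13426 genes reaching an FPKM of 1 in 4 or more tumors were kept, and 1 model over all groups was fitted with limma 3.58.1 under R 4.3.3 (trend, mouse as block with a correlation of -0.07, 12 residual degrees of freedom). Adjusted p values are Benjamini-Hochberg values from limma. The fit was tested on simulated data. Tables and figures used Python 3.11.15, pandas 2.3.3 and matplotlib 3.10.9. All members are named. Values per tumor are given for TFEB, TFE3, the LC3 and GABARAP family and, per role, the called members with the largest change in J+V against control (up to 5 hydrolases and autophagy genes, up to 3 in other roles). The 3 largest called genes of each other list and MITF are named too, and 1 further item is not reported here. The members, lists and rules were chosen with earlier results of these data known. The 35 alternatives were other pseudocounts, filters and scalings, other models, and leaving out each tumor or mouse.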

Additional observations from a re-analysis of the deposited data

Results flagged for a closer look

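In 13 of 152 gene and group combinations, 1 of the 4 tumors lay far from the other 3 (beyond the 95% limit of Dixon's test for an outlying value). Chance gives about 1 in 20. Control tumor 5R was the highest in 6 of them: TFE3 at 7.76 FPKM, CTSF at 25.3, GAA at 4.18, NEU1 at 10.2, PSAP at 175 and GABARAP at 203. In the J tumors CTSZ was high in 26L at 180.5 FPKM, PSAP in 29R at 128 and UVRAG in 29R at 9.01, whereas NEU1 was low in 26L at 6.23 and ASAH1 in 26R at 15.4. In the J+V tumors LAMP1 was low in 34R at 26.6 FPKM and CTSB was low in 34L at 69.6, against 123 or more in the other 3. No V tumor was set apart in this way.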

How the results depend on the processing

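In this paragraph the share of all genes tested stands in parentheses beside each count of members. With a common FPKM sum (TPM), J+V against control had 3 members higher (6.08%) and 7 lower (35.2%). J+V against J had 2 higher (3.63%) and 3 lower (19.8%), and J+V against V 0 higher (1.75%) and 5 lower (19.8%). With upper quartile scaling 8 (13.3%) and with quantile normalization 10 members (14.6%) were higher in J+V than in J. Under these scalings 0 were lower than in V (7.21% and 8.07%). With the mean of each mouse's tumors 1 member was higher in J+V than in J (5.06%). Against V 0 were higher (0.767%) and 0 lower (0.976%). With these mouse means CTSA and HEXA lost their calls in J+V against control (12.5% of all genes higher). With only the groups compared 3 were lower in J+V than in J (22.4%) and 1 was higher than in V (2.61%). With a mean FPKM of at least 5, 2 were lower in J+V against control (25.2%) and 2 against V (10.9%). With a pseudocount of 1 (8.19%), with no filter (4.44%) or with no mouse block (6.84%), 0 were lower in J+V than in V. In J+V against control, leaving out each tumor or mouse gave 2 to 17 higher (8.92 to 18.8%). It gave 1 to 4 lower there (12.2 to 21.9%). Against control it gave 0 to 1 higher in J (0 to 0.702%) and 0 to 6 higher in V (0 to 1.84%). In J+V against J it gave 1 to 9 higher (2.11 to 11.3%) and 0 to 2 lower (6.4 to 21.7%). In J+V against V it gave 0 to 5 higher (0.759 to 7.22%) and 0 to 3 lower (1.66 to 11%). In J against V it gave 0 to 1 lower (0 to 0.494%). The cause was not tested. No paired analysis across groups was possible because each mouse received a single treatment. Of the values of single members in J+V against control under the alternatives, 1157 kept their side of the threshold, 58 lost and 40 gained a call, and 0 called values changed direction. Depth is unknown, and 4 tumors from 2 mice limit each group.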
